A study of Mus musculus with 6 samples.

Results

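The Wnt signaling genes analyzed here were 49 genes in stromal cells sorted from mouse omentum, the visceral fat tissue whose lymphoid clusters are called milky spots. They were taken by matching gene names, from a set proposed with earlier results of these data known, among the 23352 gene symbols of the deposited data: the numbered Wnt (19), Frizzled (10) and R-spondin (4) genes, *Lgr4*, *Lgr5* and *Lgr6*, the Dkk and Sfrp genes with *Frzb* and *Wif1* (10 inhibitors in all), *Lrp5*, *Lrp6* and the target gene *Axin2*. The cells came from WT C57BL/6 mice and were sorted by CD140a (the product of *Pdgfra*), CD105 (the product of *Eng*) and aldehyde dehydrogenase (ALDH) activity. Among CD45-CD140a+CD105+ cells, P1 had high, P2 intermediate and P3 low ALDH activity. The CD45-CD140a+CD105- cells were split into P4, intermediate in ALDH activity, and P5, low in it, and P6 held CD45-CD140a low cells that were positive for ALDH. Each population had 1 RNA-seq library, the age of the mice and any pooling of animals were not given in the sources used here, and differences between libraries therefore had no replicate check and no test.

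Wnt proteins are secreted, lipid-modified signals that bind Frizzled receptors, and LRP5 or LRP6 joins the complex when the signal runs through β-catenin. R-spondins do not start this signal but strengthen it: they bind LGR receptors and spare Frizzleds from the ubiquitin ligases that remove them. Sfrp proteins and Wif1 bind Wnts outside the cell, and Dkk1, Dkk2 and Dkk4 act on LRP5 and LRP6. In many tissues stromal cells provide Wnts, R-spondins and their antagonists to neighboring cells.

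Values are FPKM, reads per kilobase of transcript relative to the reads mapped, as deposited. The estimated depth was 37.0 M reads for P6 and 53.4 to 61.7 M reads for the other libraries. Intervals beside ratios are 95% exact intervals from estimated reads. They cover counting error only, not the variation between mice or sorts, and PCR copies could not be removed. The genes of the sorted surface proteins followed the labels: *Eng* ran from 42.6 to 52.4 FPKM in P1 to P3 and from 0.231 to 0.728 FPKM in P4 to P6, *Pdgfra* was between 117 and 154 FPKM in P1 to P5 and 5.36 FPKM in P6, and *Ptprc*, which encodes CD45, was at most 0.755 FPKM. The ALDH genes did not all follow the ALDH gates. *Aldh1a2* had 469, 78.8, 134, 285, 145 and 209 FPKM from P1 to P6, with P2 (intermediate) below P3 (low), and *Aldh1a1* was lowest in P1 (41.4 FPKM) and higher in P5 (90.7 FPKM) than in P4 (78.3 FPKM). ALDH levels below are those of the gate labels. Marker sums separated the libraries further. The summed level of the 11 mesothelial markers found, of 12 listed, was 76.2, 97.7, 155, 1033, 834 and 3241 FPKM from P1 to P6, and that of 10 pancreatic acinar markers was 4.18, 229, 23.3, 1229, 147 and 1796 FPKM. A total of 95 genes with at least 10 FPKM in a library were listed at exactly 0 in another, among them the collagen gene *Col3a1* in P2, so a value of 0 is given here only as listed.

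Of the 49 genes, 31 reached 1 FPKM in at least 1 library, 20 reached 10 FPKM and 10 reached 50 FPKM. The number at 1 FPKM or more per library lay between 25 in P1 and 29 in P5. The 31 genes were 9 of 19 Wnts, 9 of 10 Frizzleds, both LRPs, *Rspo1* and *Rspo3*, *Lgr4* and *Lgr5*, 6 of 10 inhibitors, and *Axin2*. A further 13 genes stayed below 1 FPKM everywhere. The highest of these were *Lgr6* (0.403 FPKM in P6), *Wnt7b* (0.349 FPKM in P6) and *Wnt10a* (0.285 FPKM in P2), and the other 10 (*Wnt1*, *Wnt3*, *Wnt8b*, *Wnt9b*, *Fzd9*, *Rspo2*, *Rspo4*, *Dkk1*, *Dkk4* and *Sfrp5*) reached at most 0.112 FPKM. *Wnt3a*, *Wnt7a*, *Wnt8a*, *Wnt16* and *Wif1* were listed at 0 in all 6 libraries.

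**Figure D1:**
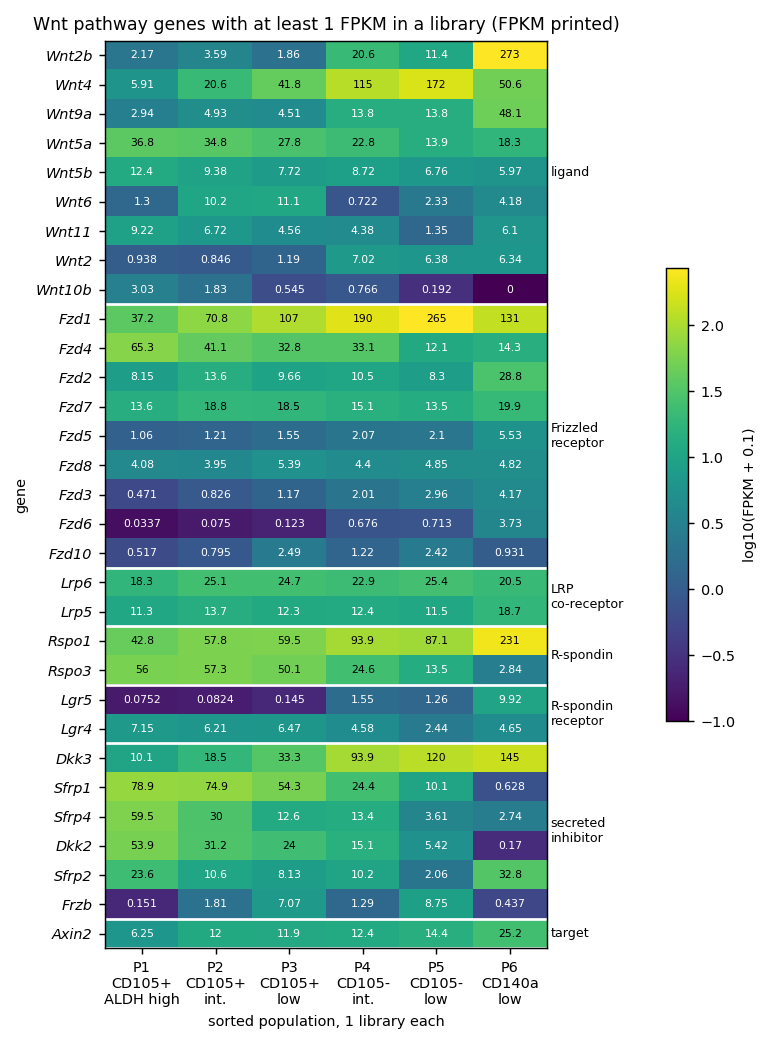
FPKM of the 31 genes that reached 1 FPKM in a library (rows, by role) in the 6 sorted populations (columns, 1 library each); color shows log10(FPKM + 0.1) and the printed values are FPKM. *Wnt2b* (273 FPKM) and *Rspo1* (231 FPKM) stand out in P6, *Wnt4* (172 FPKM) and *Fzd1* (265 FPKM) in P5, and *Sfrp1* (78.9 FPKM) and *Fzd4* (65.3 FPKM) in P1.

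The ligands, Frizzleds, R-spondins, R-spondin receptors and inhibitors each had a different leading gene in P1 and in P6. The summed FPKM of the 19 Wnt genes was 74.8, 93.2, 101, 194, 229 and 413 from P1 to P6. *Wnt5a*, a ligand best known for signaling without β-catenin, made up 49.1% of this sum in P1. *Wnt4* made up 41.3% in P3 and 75.3% in P5, and *Wnt2b* made up 66.1% in P6. Among the Frizzleds, *Fzd4* was the highest in P1 (65.3 FPKM), whereas *Fzd1* gave 85.0% of the summed FPKM in P5. *Rspo3* held 56.6% of the R-spondin sum in P1 and *Rspo1* held 98.8% in P6. The summed level of the inhibitors varied less, from 139 FPKM in P3 to 226 FPKM in P1, but its makeup did not stay the same. *Sfrp1* was the highest inhibitor in P1 at 34.9% of the sum. *Dkk3*, whose product is not established as a Wnt antagonist, supplied 4.48% in P1, 59.3% in P4, 80.0% in P5 and 79.7% in P6. The narrow range of the sum thus depended on counting *Dkk3* as an inhibitor. Some Wnt genes are neighbors, and 4 pairs of them lie within 100 kb of each other in mm10 (GENCODE M21). *Wnt6* and *Wnt10a* are 6.2 kb apart on chromosome 1, *Wnt10b* and *Wnt1* 11.7 kb apart on chromosome 15, *Wnt3a* and *Wnt9a* 16.2 kb apart on chromosome 11, and *Wnt9b* and *Wnt3* 24.3 kb apart on the same chromosome. In the first 3 pairs a single member reached 1 FPKM (*Wnt6*, *Wnt10b* and *Wnt9a*), and in the last neither did.

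**Figure D2:**
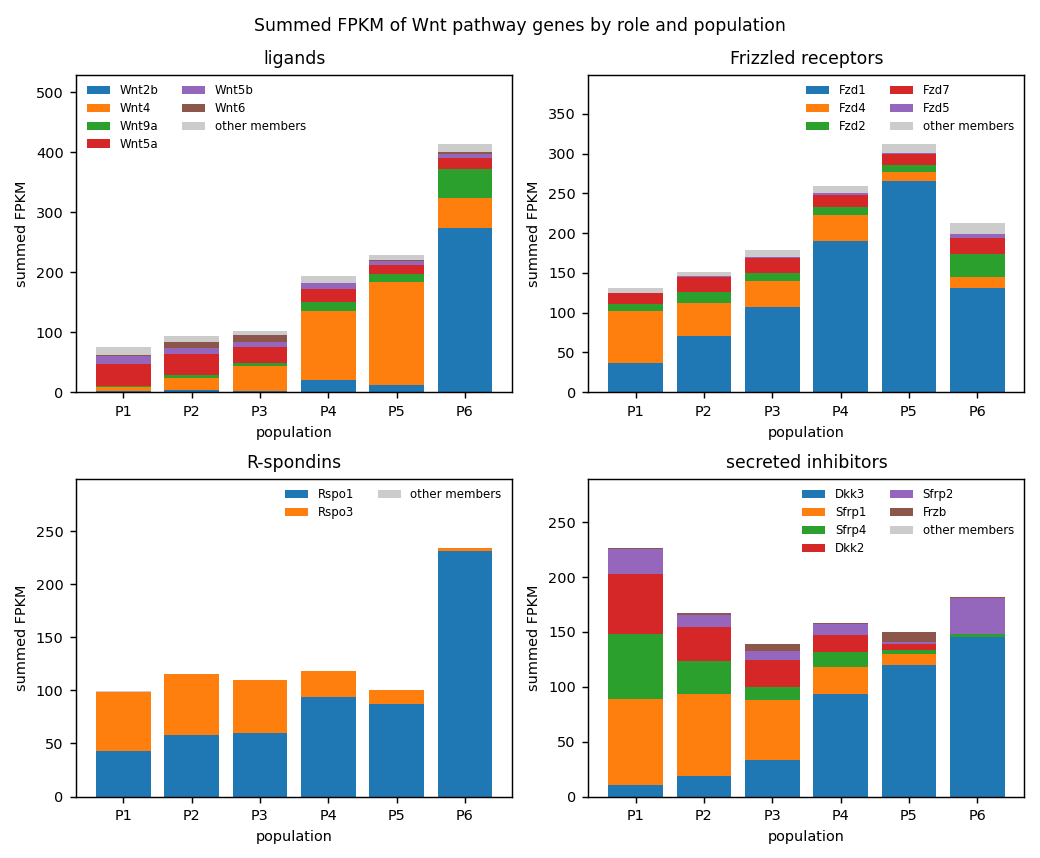
Summed FPKM (vertical axes, from 0) of the Wnt ligands, Frizzled receptors, R-spondins and secreted inhibitors in P1 to P6, 1 library each, with each color standing for 1 gene. The ligand sum rises from 74.8 FPKM in P1 to 413 FPKM in P6. The orange *Wnt4* segment gives way to the blue *Wnt2b* segment in P6. The inhibitor sum, with *Dkk3* counted in it, stays between 139 and 226 FPKM. The *Dkk3* segment is larger, and those of *Sfrp1*, *Sfrp4* and *Dkk2* are smaller, in P4 to P6 than in P1.

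The first comparison asked how CD140a low cells (P6) differed from the 5 CD140a+ populations. A gene was called when P6 was past a fold of 2, on the log2(FPKM + 0.1) scale, against each of the 5. Of the 31 Wnt signaling genes with a mean of at least 0.5 FPKM, 7 were higher in P6, where 5.32% of the 12959 genes tested were, and 4 were lower, where 4.63% of all genes were. These were 22.6% and 12.9% of the genes of the set, and the 11 together compare with 9.95% of all genes. The minimum was taken over all 6 libraries, and *Fzd6*, with a mean of 0.324 FPKM in P1 to P5, passed it only through its P6 value. Of the 7 genes, 6 had a mean of at least 0.5 FPKM in P1 to P5 themselves, as did 505 of the 689 genes called higher in P6 among all genes. The median log2 difference between P6 and the mean of the 5 was 0.34 for the set and 0.09 for all genes.

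The genes higher in P6 were 2 ligands, 3 Frizzleds, an R-spondin and an R-spondin receptor. *Wnt2b*, which encodes a ligand of the β-catenin branch and lies on the minus strand at chr3:104945272-104961921, had 2.17, 3.59, 1.86, 20.6, 11.4 and 273 FPKM in P1 to P6. P6 was 13.3-fold above P4, the next highest library (12.8 to 13.7), and 147-fold above P3. In P6 *Wnt2b* exceeded 98.3% of the genes with at least 1 FPKM. *Wnt9a*, another ligand, had 2.94, 4.93, 4.51, 13.8, 13.8 and 48.1 FPKM, and P6 was 3.48-fold above P4 (3.32 to 3.65). *Rspo1*, on the plus strand at chr4:124986430-125009099, had 42.8, 57.8, 59.5, 93.9, 87.1 and 231 FPKM. *Rspo1* was thus well detected in the CD140a+ libraries too, and its level in P6 was 2.46-fold above P4 (2.40 to 2.53). *Lgr5*, an R-spondin receptor known as a marker of several epithelial stem cells, had 0.0752, 0.0824, 0.145, 1.55, 1.26 and 9.92 FPKM, so that P6 was 6.40-fold above P4 (5.74 to 7.14). *Lgr4*, the other receptor of this group that was detected, was not called: its level was 7.15, 6.21, 6.47, 4.58, 2.44 and 4.65 FPKM, and *Lgr5* was the larger share of the LGR sum in P6 alone (66.3%).

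*Fzd6*, a Frizzled with a role in planar cell polarity, had 0.0337, 0.0750, 0.123, 0.676, 0.713 and 3.73 FPKM. The P6 value was 5.23-fold above P5 (4.40 to 6.19), and the value in P1 rested on about 7.42 estimated reads. *Fzd5* had 1.06, 1.21, 1.55, 2.07, 2.1 and 5.53 FPKM, and P6 was 2.63-fold above P5 (2.42 to 2.87). *Fzd2* had 8.15, 13.6, 9.66, 10.5, 8.30 and 28.8 FPKM, and P6 was 2.12-fold above P2 (2.02 to 2.22). *Fzd2* lay closest to the threshold and was not called after scaling by the median of ratios, by *Gapdh* or by quantiles, where its log2 difference was 0.93, 0.77 and 0.99.

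The genes lower in P6 were 2 inhibitors, an R-spondin and a ligand. *Dkk2*, on the plus strand at chr3:132085292-132180304, had 53.9, 31.2, 24.0, 15.1, 5.42 and 0.170 FPKM. It was 32.0-fold lower in P6 than in P5 (21 to 51.2), the lowest of the CD140a+ libraries, and 318-fold lower than in P1. *Sfrp1*, which encodes a Wnt-binding secreted protein, had 78.9, 74.9, 54.3, 24.4, 10.1 and 0.628 FPKM, and P5 was 16.1-fold above P6 (13.1 to 19.9). *Rspo3* went the opposite way to *Rspo1*, with 56.0, 57.3, 50.1, 24.6, 13.5 and 2.84 FPKM, and P5 was 4.75-fold above P6 (4.22 to 5.38). *Wnt10b* had 3.03, 1.83, 0.545, 0.766 and 0.192 FPKM in P1 to P5 and was listed at 0 in P6, so no ratio is given. It was not called with a pseudocount of 1 FPKM. *Dkk2* and *Sfrp1* fell at every step from P1 through P6, an order found in 3.29% of all genes tested, and *Dkk3*, *Fzd3*, *Fzd5* and *Fzd6* rose at every step, an order found in 6.46%. These orders were looked for after the values were seen, and some steps of *Fzd5* and *Fzd6* lay within counting error.

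**Figure D3:**
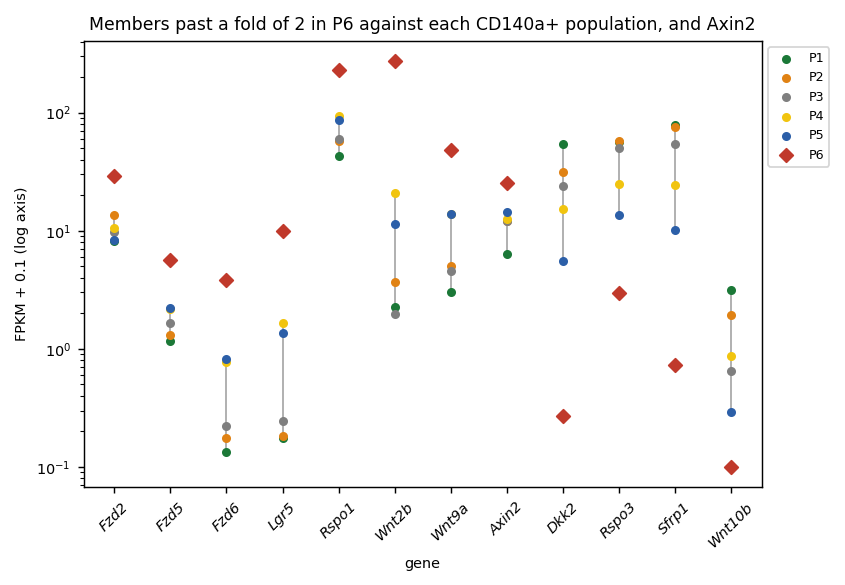
FPKM + 0.1 (log axis) of the 11 genes called in P6 against each CD140a+ population, and of *Axin2*; round points are P1 to P5, joined by a line from the lowest to the highest, and diamonds are P6, 1 library each. The P6 diamond lies above all 5 points for the first 7 genes and below them for the last 4, and for *Axin2* (25.2 FPKM) it lies above P5 (14.4 FPKM) by less than 2-fold.

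Markers of other cell types moved with these genes. Of the 11 mesothelial markers, 10 were called higher in P6 (*Krt7* and *Krt18* passed the minimum only through P6), and the uroplakin gene *Upk3b* had 11.1, 6.78, 22.7, 383, 289 and 1140 FPKM from P1 to P6. Of the adipocyte list, *Plin1* had 14.4 FPKM in P6 and at most 3.79 FPKM elsewhere. *Adipoq*, *Cfd*, *Cidec*, *Retn* and *Pck1* were also higher there but passed the minimum only through P6. The summed level of the 8 genes was 340 FPKM in P6 and between 146 and 350 FPKM elsewhere. Most of this sum was *Fabp4*, which was not called and had 179 FPKM in P6 and between 141 and 349 FPKM elsewhere. *Cfd* had 114 FPKM in P6 and at most 0.337 FPKM elsewhere. For the 10 endothelial markers the sum was 113 FPKM in P6 and at most 19.1 FPKM elsewhere. All 3 that were tested (*Kdr*, *Esam* and *Egfl7*, the last only through its P6 value) were higher in P6, *Kdr* with 46.9 FPKM and *Esam* with 62.0 FPKM made up most of the sum, and *Pecam1* had 0.992 FPKM. The sums of the 6 myeloid and 6 mural markers were 46.4 and 58.5 FPKM in P6 against 12.5 to 32.1 and 5.69 to 104 FPKM elsewhere. Of 4 myeloid markers tested, *Csf1r* and *Cd68* were higher in P6. Of 4 mural markers tested, *Acta2* and *Mcam* (the latter tested only through its P6 value) were higher and *Notch3* was lower. The sum of the 6 lymphoid markers was at most 5.85 FPKM in any library. Of the 8 fibroblast markers, *Pdgfra*, *Dpt* and *Lum* were lower in P6 and none was higher. No pancreatic acinar marker was called in P6, although their sum was highest there. The parts of these cell types in the Wnt values were not tested, and in a sorted bulk library more cells of a type and more RNA per cell cannot be told apart.

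The next comparison set CD105+ against CD105- cells at matched ALDH activity, P2 against P4 and P3 against P5. Genes past a fold of 2 in the same direction in both pairs were called. They were 15 of the 31 Wnt signaling genes (48.4%), where 9.41% of all genes passed. Of these, 6 were higher in CD105+ cells (3.7% of all genes were) and 9 were lower (5.71% of all genes were). With libraries divided by *Gapdh*, which was itself higher in P4 (302 FPKM) and P5 (326 FPKM) than in P2 (218 FPKM) and P3 (224 FPKM), 8 were higher and 7 were lower. *Fzd1* and *Fzd3* were the called genes that were lost. On the log2 scale this division shifted all genes by a median of 0.25 in P2, 0.21 in P3, -0.22 in P4 and -0.33 in P5. The share of all genes called after it is not given here, so these 2 counts have no background beside them. The median log2 difference was 0.08 for the set and -0.08 for all genes.

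The genes higher in CD105+ cells were 3 inhibitors, an R-spondin and 2 ligands. *Sfrp1* was 3.07-fold higher in P2 than in P4 (2.98 to 3.16) and 5.38-fold higher in P3 than in P5 (5.15 to 5.61). *Dkk2* differed by 2.07-fold (1.98 to 2.16) and 4.42-fold (4.15 to 4.71), and *Rspo3* by 2.33-fold (2.25 to 2.42) and 3.71-fold (3.55 to 3.88). *Sfrp4*, another secreted Frizzled-related inhibitor, had 59.5, 30.0, 12.6, 13.4, 3.61 and 2.74 FPKM in P1 to P6, which made it 2.25-fold and 3.49-fold higher in the CD105+ member of each pair. P3 and P4, which differ in both CD105 and ALDH activity, therefore had close values of *Sfrp4*. *Wnt6* had 1.30, 10.2, 11.1, 0.722, 2.33 and 4.18 FPKM, and its difference at intermediate ALDH activity, 14.2-fold (11.3 to 18.1), was the largest among the 6 genes, with 4.76-fold at low ALDH activity (4.17 to 5.46). P1, the third CD105+ population, was not high in *Wnt6*. *Wnt10b* was higher in P2 than in P4 by 2.39-fold (1.90 to 2.98) and in P3 than in P5 by 2.84-fold (1.84 to 4.43).

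The genes lower in CD105+ cells were 4 ligands, 3 Frizzleds, *Lgr5* and *Dkk3*. *Wnt4*, on the plus strand at chr4:137277489-137299726 and known for its role in the urogenital tract, had 5.91, 20.6, 41.8, 115, 172 and 50.6 FPKM in P1 to P6. P4 exceeded P2 by 5.60-fold (5.43 to 5.77) and P5 exceeded P3 by 4.12-fold (4.03 to 4.21). *Wnt2* had 0.938, 0.846, 1.19, 7.02, 6.38 and 6.34 FPKM, so that P4, P5 and P6 were close to each other and all above P1 to P3. *Wnt2b* was 5.74-fold higher in P4 than in P2 and 6.13-fold higher in P5 than in P3, and *Wnt9a* was 2.81-fold and 3.07-fold higher. Thus 4 of the 9 detected ligands were higher in CD105- cells, where 5.71% of all genes were. *Wnt6* and *Wnt10b* were lower there, and *Wnt5a*, *Wnt5b* and *Wnt11* were not called.

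*Fzd1*, the highest Frizzled in 5 of 6 libraries, had 37.2, 70.8, 107, 190, 265 and 131 FPKM. It was 2.68-fold higher in P4 than in P2 (2.63 to 2.72) and 2.47-fold higher in P5 than in P3 (2.44 to 2.51). *Fzd3* had 0.471, 0.826, 1.17, 2.01, 2.96 and 4.17 FPKM, with folds of 2.43 and 2.53. *Fzd6* was 9.01-fold and 5.80-fold higher, and *Lgr5* 18.8-fold and 8.69-fold higher, at levels of at most 1.55 FPKM in these 4 libraries. *Fzd3*, *Fzd6* and *Lgr5*, and *Wnt10b* among the genes higher in CD105+ cells, were not called with a pseudocount of 1 FPKM, which shrinks differences at low levels. *Dkk3*, whose product carries the Dkk name but is not established as a Wnt antagonist, had 10.1, 18.5, 33.3, 93.9, 120 and 145 FPKM and was 5.08-fold (4.90 to 5.27) and 3.60-fold (3.50 to 3.70) higher in the CD105- member of each pair.

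**Figure D4:**
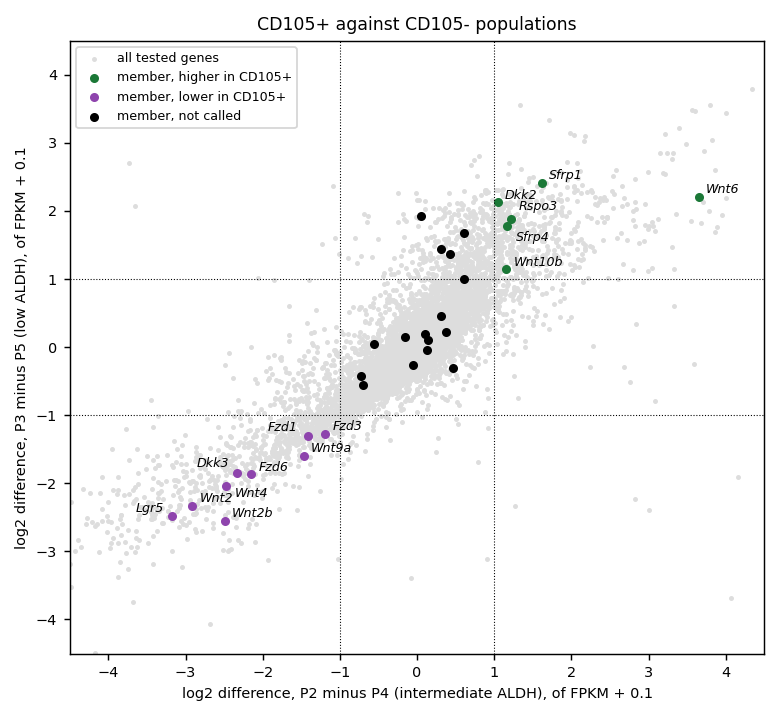
Log2 differences of FPKM + 0.1 between CD105+ and CD105- populations at intermediate ALDH activity (P2 minus P4, horizontal axis) and at low ALDH activity (P3 minus P5, vertical axis), 1 library each; gray points are all tested genes within the axes, colored and black points are Wnt signaling genes, and dotted lines mark a fold of 2. The 6 green genes, with *Wnt6* farthest to the right, lie past the lines in the upper right, and the 9 purple genes, from *Fzd3* to *Lgr5*, lie past them in the lower left.

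Markers of other cells moved with CD105 as well. Of the mesothelial markers 10 of 11 were lower in CD105+ cells, and so were all 10 acinar markers. Of 3 endothelial markers tested, *Kdr* and *Esam* were lower. Of 4 mural markers tested, *Acta2* and *Myh11* were lower and *Notch3* was higher, and of the 8 fibroblast markers *Dpt* and *Lum* were higher. *Plin1* of 7 adipocyte markers tested and *Fcer1g* of 4 myeloid markers tested were also higher in CD105+ cells. *Myh11*, a smooth muscle gene, had 2.28, 6.31, 35.1, 56.6, 91.8 and 20.1 FPKM in P1 to P6. The part of these cell types in the differences was not tested.

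The remaining comparisons followed ALDH activity within the CD105+ and CD105- cells, and they share their libraries with each other and with the comparisons above. Between P1 (ALDH high) and P2 (ALDH intermediate), 1 Wnt signaling gene was higher in P1 (0.926% of all genes were) and 3 were lower (4.67% of all genes were), against 5.59% of all genes in either direction. *Sfrp2*, a secreted inhibitor with 23.6, 10.6, 8.13, 10.2, 2.06 and 32.8 FPKM in P1 to P6, was 2.23-fold higher in P1 than in P2 (2.07 to 2.39). It was also high in P6, unlike *Sfrp1* and *Sfrp4*. *Frzb*, the gene of another Sfrp family inhibitor, had 0.151, 1.81, 7.07, 1.29, 8.75 and 0.437 FPKM and was 12.0-fold lower in P1 than in P2 (7.83 to 18.8). *Wnt6* was 7.85-fold lower (6.55 to 9.49) and *Wnt4* 3.48-fold lower (3.27 to 3.71). *Sfrp4* lay just under the threshold, at 1.98-fold higher in P1 (1.92 to 2.04). After scaling by the median of ratios or by *Gapdh* 2 genes were higher and 3 were lower, with the share of all genes not given here.

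Between P2 and P3 (ALDH low), 5 genes were called, where 4.17% of all genes were. *Sfrp4* and *Wnt10b* were higher in P2 (1.22% of all genes were), by 2.39-fold (2.29 to 2.50) and 3.36-fold (2.62 to 4.34). *Frzb*, *Fzd10* and *Wnt4* were higher in P3 (2.96% of all genes were), by 3.91-fold (3.46 to 4.43), 3.13-fold (2.59 to 3.78) and 2.03-fold (1.96 to 2.1). *Wnt4* lay at the threshold here and was not called after scaling by the median of ratios or by *Gapdh*. Both scalings left 2 genes in each direction, with the share of all genes not given here. With a pseudocount of 1 FPKM only *Sfrp4* and *Frzb* were called.

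Between P4 and P5, which take the same step among CD105- cells, 7 genes were higher in P4 (4.23% of all genes were) and 2 were higher in P5 (1.47% of all genes were), against 5.7% of all genes in either direction. *Sfrp2* was 4.96-fold higher in P4 (4.30 to 5.74), *Wnt10b* 4.0-fold (2.64 to 6.16), *Sfrp4* 3.71-fold (3.44 to 4.0) and *Wnt11* 3.25-fold (2.83 to 3.74). *Dkk2*, *Fzd4* and *Sfrp1* were 2.78-fold, 2.75-fold and 2.42-fold higher. So 4 of the 6 detected inhibitors were higher in P4 than in P5. *Frzb*, in contrast, was 6.81-fold higher in P5 (5.91 to 7.87), and *Wnt6* was 3.23-fold higher (2.50 to 4.20). All 10 acinar markers were lower in P1 than in P2 and higher in P2 than in P3 and in P4 than in P5. Of the 11 mesothelial markers, 2 were lower in P1 than in P2, 4 were lower and 1 was higher in P2 than in P3, and 3 were higher in P4 than in P5. The mural markers *Acta2* and *Myh11* were lower in P1 than in P2 and, with *Mcam*, lower in P2 than in P3, and none was called between P4 and P5. Among endothelial markers, *Kdr* and *Egfl7* were lower and *Esam* was higher in P1 than in P2, *Esam* was lower in P2 than in P3, and *Kdr* and *Egfl7* were higher in P4 than in P5. The fibroblast markers *Dpt* and *Lum* were higher in P4 than in P5, and *Col3a1*, listed at 0 in P2, was higher in P1 and P3. The myeloid marker *Cd68* was lower in P1 than in P2, and the lymphoid marker *Cd79a* was higher in P2 than in P3. Of the adipocyte markers, *Adipoq* was higher in P2 than in P3. *Retn* was higher in P1 and P3 than in P2, and in P4 than in P5. Both passed the minimum only through P6. The part of these cells was not tested.

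The order of the levels was also read without a fold threshold, after the values were seen. *Dkk2*, *Sfrp1*, *Sfrp2*, *Sfrp4*, *Fzd4*, *Wnt5a*, *Wnt5b*, *Wnt10b* and *Wnt11* fell from P1 to P2 to P3 and from P4 to P5, which was 9 of 31 genes where 16.3% of all genes did so. *Fzd4*, a receptor that also binds norrin, had 65.3, 41.1, 32.8, 33.1, 12.1 and 14.3 FPKM, and *Wnt5a* had 36.8, 34.8, 27.8, 22.8, 13.9 and 18.3 FPKM. *Wnt11*, a ligand linked with planar cell polarity, had 9.22, 6.72, 4.56, 4.38, 1.35 and 6.10 FPKM. *Wnt5b* had 12.4, 9.38, 7.72, 8.72, 6.76 and 5.97 FPKM. *Dkk3*, *Frzb*, *Fzd1*, *Fzd3*, *Fzd5*, *Fzd6*, *Fzd10*, *Wnt4* and *Wnt6* rose in both series. That was again 9 of 31 genes, close to the share among all genes, 30.7%. For *Fzd5* the ratio was 0.987 (0.896 to 1.09) for P4 to P5 and 0.880 (0.767 to 1.01) for P1 to P2. For *Fzd6* it was 0.949 (0.760 to 1.17) for P4 to P5, 0.449 (0.151 to 1.06) for P1 to P2 and 0.610 (0.322 to 1.10) for P2 to P3. These neighbors in the order did not differ beyond counting error, so no step of *Fzd6* in either series did. *Fzd10* had 0.517, 0.795, 2.49, 1.22, 2.42 and 0.931 FPKM, and P3 and P5 did not differ beyond counting error (1.03-fold, 0.902 to 1.17).

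**Figure D5:**
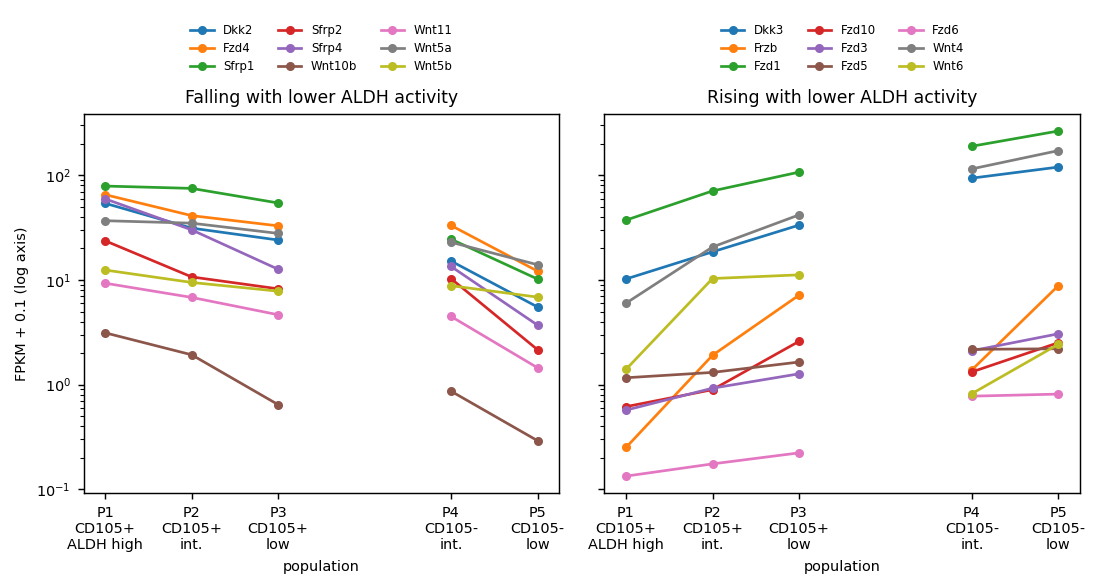
FPKM + 0.1 (log axis) of 18 genes in the CD105+ populations P1, P2 and P3 and the CD105- populations P4 and P5, 1 library each and ordered by falling ALDH activity within each series, with lines joining libraries of a series. The 9 genes on the left fall at every step, with *Sfrp4* going from 59.5 to 12.6 FPKM between P1 and P3. The 9 genes on the right rise at every step, with *Wnt4* going from 5.91 to 41.8 FPKM. Some steps of *Fzd5* and all of *Fzd6* lie within counting error.

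Several receptors changed little. The co-receptor *Lrp6* had 18.3, 25.1, 24.7, 22.9, 25.4 and 20.5 FPKM, and *Lrp5* had 11.3, 13.7, 12.3, 12.4, 11.5 and 18.7 FPKM. *Fzd7* was between 13.5 and 19.9 FPKM and *Fzd8* between 3.95 and 5.39 FPKM in all libraries. Neither these 4 genes nor *Axin2* was called in any of the 5 comparisons. Which library was the highest for *Fzd7* and *Lrp6*, and for *Frzb*, *Rspo3* and *Wnt2*, changed with the scaling between libraries.

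*Axin2*, a feedback inhibitor that is a widely used target gene of β-catenin signaling and lies on the plus strand at chr11:108920349-108950783, had 6.25, 12.0, 11.9, 12.4, 14.4 and 25.2 FPKM. P2, P3 and P4 were close to each other, P1 was the lowest and P6 the highest. P6 exceeded P5 by 1.75-fold (1.67 to 1.83) and P1 by 4.03-fold (3.78 to 4.29), and P2 exceeded P1 by 1.91-fold (1.80 to 2.04). The exons of *Axin2* overlap those of an annotated gene on the opposite strand, as do those of *Fzd5*, *Fzd6*, *Rspo3*, *Sfrp2*, *Wnt5a*, *Wnt7b* and *Wnt11*. Counting was not stated to use strand, so reads of such pairs cannot be told apart.

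The rest of the pathway was read from a list of 70 genes, of which 57 had a mean of at least 0.5 FPKM. In P6, 4 were higher and 1 was lower, 5 of 57 genes against 9.95% of all genes, which does not set the list apart. *Sp5* and *Mcam* passed the minimum only through P6. The higher genes were *Apcdd1*, a membrane-bound Wnt inhibitor (4.15, 7.03, 6.11, 11.2, 11.2 and 24.4 FPKM in P1 to P6), *Tcf7*, a transcription factor of the pathway (0.156, 0.365, 0.525, 1.24, 1.16 and 3.01 FPKM), *Sp5*, a target gene (at most 0.247 FPKM in P1 to P5 and 3.26 FPKM in P6), and *Mcam* (at most 0.642 FPKM in P1 to P5 and 1.83 FPKM in P6), which is also a mural cell marker. The lower gene was *Myc*, with 223, 206, 200.4, 106, 69.9 and 22.8 FPKM. *Myc* has many regulators besides β-catenin.

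Among the 57 genes, 4 were higher and 4 were lower in CD105+ cells, where 9.41% of all genes were called. *Gpc6*, *Nkd2*, *Tbx3* and *Wisp2* were higher and *Ccnd1*, *Cd44*, *Tcf7* and *Tnfrsf19* were lower. *Ccnd1*, which encodes cyclin D1, had 11.9, 8.78, 22.4, 49.2, 59.3 and 13.7 FPKM. In P1 against P2 none was higher in P1 and 6 were lower, namely *Nkd1*, *Nkd2*, *Wisp2*, *Tnfrsf19*, *Tbx3* and *Ptk7*, where 4.67% of all genes were lower. The feedback inhibitor *Nkd1* had its lowest level in P1 and its highest in P6, with 8.63, 17.4, 19.3, 28.9, 35.5 and 40.4 FPKM. In P2 against P3 *Dact2* was higher and *Mcam* and *Ccnd1* were lower, where 4.17% of all genes were called. In P4 against P5 *Gpc3*, *Gpc6* and *Dact2* were higher and no gene was lower, where 5.7% of all genes were called. All 17 cytoplasmic genes of the list were measured, and none of them was called in P6, by CD105 or between P1 and P2. *Ctnnb1*, the β-catenin gene, stayed between 107 and 131 FPKM. *Wls*, required for the release of Wnt proteins, had 55.6, 83.3, 86.3, 127, 155 and 154 FPKM.

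The sequence upstream of the genes was searched for CTTTGAA and CTTTGTT, forms of the motif bound by TCF and LEF factors, on both strands in the 250 bases before each RefSeq start (GRCm38.p6). The RefSeq table held 35 such windows for 32 of the 49 genes. A match was present in 2 of the 35 windows (5.71%) and in 9.17% of all 32851 windows. The matches lay upstream of *Dkk1*, which was hardly detected, and of *Fzd7*. The windows of *Fzd7*, of *Rspo1* and *Dkk2* as genes at opposite ends of the populations, and of the target gene *Axin2* are shown, 5′ to 3′ on the plus strand, which all 4 genes use, with the motif in capitals (as AACAAAG, the reverse complement of CTTTGTT).
Fzd7 (chr1:59481897-59482146): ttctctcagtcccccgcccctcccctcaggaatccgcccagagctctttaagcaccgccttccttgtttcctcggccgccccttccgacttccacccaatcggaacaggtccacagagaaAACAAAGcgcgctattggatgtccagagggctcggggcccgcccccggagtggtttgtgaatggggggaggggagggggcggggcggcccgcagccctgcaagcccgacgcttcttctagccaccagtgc
Rspo1 (chr4:124986180-124986429): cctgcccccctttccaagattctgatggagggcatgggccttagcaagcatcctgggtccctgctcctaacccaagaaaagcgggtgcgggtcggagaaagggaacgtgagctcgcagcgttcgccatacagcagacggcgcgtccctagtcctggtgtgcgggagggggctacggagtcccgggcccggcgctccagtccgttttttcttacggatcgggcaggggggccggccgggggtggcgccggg
Dkk2 (chr3:132085042-132085291): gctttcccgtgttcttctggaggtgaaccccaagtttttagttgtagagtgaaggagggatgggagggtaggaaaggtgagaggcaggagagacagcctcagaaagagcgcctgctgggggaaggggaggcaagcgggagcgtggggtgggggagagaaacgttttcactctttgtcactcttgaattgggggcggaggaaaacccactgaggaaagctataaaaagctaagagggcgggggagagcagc
Axin2 (chr11:108920099-108920348): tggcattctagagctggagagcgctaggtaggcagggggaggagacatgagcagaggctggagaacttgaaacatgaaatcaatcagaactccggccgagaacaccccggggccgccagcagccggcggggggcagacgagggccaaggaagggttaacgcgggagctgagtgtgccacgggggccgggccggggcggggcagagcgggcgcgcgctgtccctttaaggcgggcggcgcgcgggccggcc
The *Rspo1* window had a GC content of 66.8% and 22 CpG dinucleotides and that of *Axin2* 69.2% and 24, whereas *Dkk2* had 55.6% and 7. The median over all windows was 52.4% and 6. The windows of *Rspo1*, *Dkk2* and *Axin2* did not contain these letters, which says nothing about whether the factors act on the genes.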

How the data were processed

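RNA from 6 sorted omental stromal populations, 1 library each, was sequenced as single-end reads. The authors deposited FPKM values per gene for each library. The submitters' processing notes name TopHat2 2.0.7, Cufflinks 2.1.1 and mm10; the annotation and the use of strand are not given in the sources used here. Each file held 23847 rows; the 495 rows that repeated a symbol were summed with the row they repeated. Samples were grouped by the labelled gate.

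With no replicates, no test was run. Genes with a mean of at least 0.5 FPKM over the 6 libraries were compared as log2(FPKM + 0.1) and called past a fold of 2; such folds understate changes of low genes. Ratios printed are of FPKM. Depth was estimated from the steps of low FPKM values in 3316 genes with a single transcript (at least 800 nt, fragment length taken as 200 nt); 53.0% to 58.6% of values of 1 to 10 reads lay within 0.05 of a whole number, so reads are estimates and no count test was run. Intervals (95%) were computed from these reads with the longest coding transcript of GENCODE M21.

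Genes of the set with at least 1 FPKM in a library are named with their values, others with their highest value or as a count. Other pathway genes are named where called, and *Ctnnb1* and *Wls* are named without a call. Members, gene lists and comparisons were chosen with earlier results of these data known. *Wisp2* was matched through a RefSeq synonym. Protein sequences were not used here. The procedure was tested on simulated reads that carried counting error only, so this could not test for variation between mice or sorts. Alternatives covered the pseudocount, the minimum, the fold and 4 scalings; leaving out P4 (the CD140a+ library with the most acinar transcripts) and using the ALDH-low pair alone were added after the data were seen. Scripts ran in Python 3.11.15 with scipy 1.17.1 (intervals), pandas 2.3.3, numpy 2.4.6 and, for plots, matplotlib 3.10.9.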

Additional observations from a re-analysis of the deposited data

How the results depend on the processing

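With each population in 1 library, variation between mice and sorts could not be measured. No paired analysis was possible because the labels give no replicates. Of 352 values of single genes under the alternatives, 39 lost the call. Leaving out the minimum and using a fold of 1.5 only loosen the rule, so the values under these settings could not lose a call. Directions could change only under the 4 scalings, and none did there. Counts of called genes moved by over 1.5 times where the fold or the pseudocount was changed, which follows from the stricter or looser rule. At a fold of 3 the counts, with the share of all genes, were 7 instead of 11 in P6 (5.51%), 8 instead of 15 by CD105 (4.20%), 1 instead of 5 for P2 against P3 (1.98%) and 4 instead of 9 for P4 against P5 (2.18%). At a fold of 1.5 they were 15 instead of 4 for P1 against P2 (12.1%), 8 instead of 5 for P2 against P3 (8.93%) and 14 instead of 9 for P4 against P5 (12.2%). A pseudocount of 1 FPKM gave 2 for P2 against P3 (2.02%). Division by *Gapdh* moved the median of all genes by 0.60 on the log2 scale between the libraries farthest apart, quantile scaling by 0.25, the median of ratios by 0.23 and a common sum by 0.08. The ALDH-low pair alone gave 19 genes for CD105 (13.9% of all genes), 10 higher and 9 lower, among them the 15 that the rule on both pairs already required to pass there; leaving out P4 could not lose a call in P6, and none was gained.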

Other observations

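Without the minimum mean of 0.5 FPKM, 13 of 49 Wnt signaling genes were called in P6 in either direction, where 7.85% of all genes were. Compared with the main rule, 2 more genes of the set were higher in P6. They were *Lgr6*, listed at 0 in P1 and P2 and at most 0.00945 FPKM in P3 to P5, with 0.403 FPKM in P6, and *Wnt7b*, listed at 0 in P1 to P4, with 0.349 FPKM in P6. These levels correspond to about 96.4 and 41.3 estimated reads. *Dkk4* was listed above 0 in P6 alone, at 0.0486 FPKM.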
